A study of Homo sapiens with 7 samples.

Results

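Contacts within a chromosome arm at separations of 1 to 10 Mb were described in 7 Hi-C libraries of DLD-1, an established line from a human colorectal adenocarcinoma. The members are the entries of the authors' tables of intra-arm contact for the autosomal arms at the 180 separations from 1 to 9.95 Mb, in steps of 50 kb. They were selected by arm and separation, without a cut on contact values. The arms and the range were chosen with earlier results of these data known. Each library has 7920 such entries (44 arms) of 61775 entries for all arms and separations. The short arms of chromosomes 13, 14, 15, 21 and 22 had at most 2 valid bin pairs in this range and were left out, which left 7020 entries in 39 arms. An arm is named by its chromosome and p (short) or q (long), on the hg38 build.

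Hi-C ligates DNA ends that are near each other in the nucleus and reads the ligated pairs, and contact becomes rarer as the separation along the chromosome grows. The way it decays reflects how the chromatin fibre is folded. Below about the size of a large domain, loops and topologically associating domains shape the curve, whereas at megabase separations the sorting of active (A) and inactive (B) chromatin into compartments and the packing of the whole chromosome contribute. DNA methylation in human cells is copied after replication by DNMT1 and placed on unmethylated DNA by DNMT3A and DNMT3B, and methylation is found through both compartments.

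All 7 libraries came from cells in which DNMT1 carries an auxin-inducible degron (AID), a tag through which auxin (indole-3-acetic acid) has the protein degraded. The 4 DNMT1-AID libraries were untreated, treated with auxin for 4 d, treated for 10 d, or treated for 4 d and then kept for 4 d after the auxin was washed out. The 3 knockout libraries came from DNMT1-AID cells with a knockout of DNMT3B, untreated and after 4 d and 10 d of auxin. The untreated knockout library is called a knockout in its title, while its genotype label names DNMT1-AID alone; it was grouped by its title.

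Each group held 1 library, so no difference could be tested against replicates, and the number of arms with a direction describes these libraries only. No library came from cells without the degron, so auxin itself and loss of DNMT1 cannot be told apart, nor can DNMT3B loss and other differences between the knockout and the parent line. Intra-arm contacts numbered 19435129 in the washout library and 70709290 to 165193085 in the other 6, and those at 1 to 10 Mb numbered 4693105 to 40001412. The arm with the fewest contacts at 1 to 10 Mb in the washout library still held 22156. Chromosome 8 held 5.35% to 5.38% of intra-arm contacts in the DNMT1-AID libraries and 7.70% to 7.75% in all 3 knockout libraries, the one with the divided labels among them.

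Contact did not decay at one rate across this range. Balanced contact is the authors' scaled signal, and balancing is meant to give every bin the same total. Per pair of 50 kb bins, balanced contact in untreated DNMT1-AID cells was 25.9 x 1e-4 at 1.12 Mb, 9.19 x 1e-4 at 2.24 Mb, 4.20 x 1e-4 at 4.49 Mb and 2.49 x 1e-4 at 8.93 Mb. The fall from the first to the last of the 10 log-spaced bins was 10.4-fold. In the same order of bins, balanced contact in the untreated knockout library was 26.0, 8.65, 3.65 and 2.03 x 1e-4, a fall of 12.8-fold. In balanced contact, the untreated curves of both lines thus began together and had parted by the end of the range. The fall was 11.1-fold after 4 d of auxin, 9.94-fold after 10 d and 9.94-fold after washout in DNMT1-AID cells. In the knockout it was 12.4-fold after 4 d and 12.2-fold after 10 d.

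The local slope, the change of log10 contact per unit of log10 separation between neighbouring bins, was steepest at 1.26 Mb and shallowest at 7.97 Mb in each of the 7 libraries. At 1.26 Mb it lay between -1.69 (DNMT1-AID, 4 d) and -1.57 (knockout, 10 d), and the lines overlapped. At 7.97 Mb it was -0.63, -0.65, -0.67 and -0.64 in the DNMT1-AID libraries (untreated, 4 d, 10 d and washout) and -0.74, -0.74 and -0.85 in the knockout libraries (untreated, 4 d and 10 d). All 3 knockout libraries were steeper than all 4 DNMT1-AID libraries at each of the 6 steps from 2.53 to 7.97 Mb, and at none of the 3 steps from 1.26 to 1.99 Mb. The gap was narrowest at 2.53 Mb, where the shallowest knockout slope was -1.28 and the steepest DNMT1-AID slope was -1.27.

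**Figure D1:**
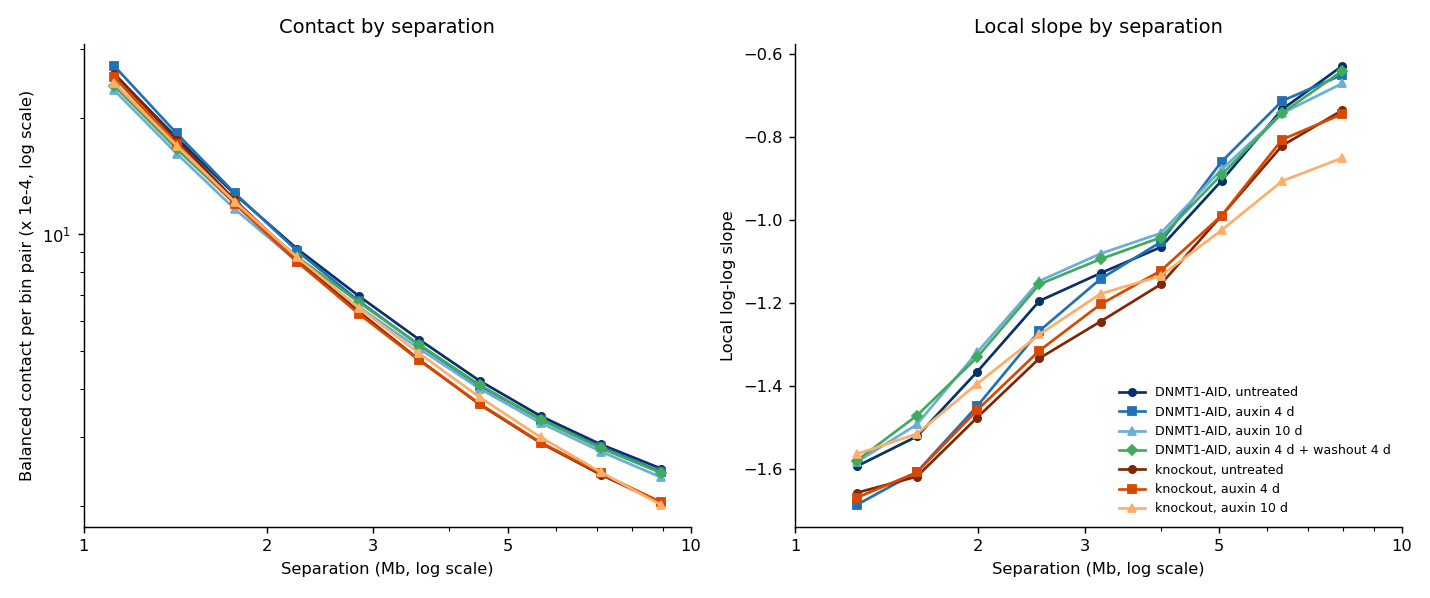
Left, balanced contact per pair of 50 kb bins (x 1e-4, log scale) against separation (Mb, log scale) for the 7 libraries, pooled over 39 arms; right, the local log-log slope between neighbouring bins. The knockout curves (brown to orange) lie below the DNMT1-AID curves (blue and green) at the right of the left panel, and their local slopes are lower at every step from 2.53 Mb on.

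The share of intra-arm contacts that fell at 1 to 10 Mb differed little between libraries. It was 24.6% in untreated DNMT1-AID cells, 24.2% after 4 d of auxin, 24.6% after 10 d and 24.1% after washout. In the knockout it was 23.7% without auxin, 23.3% after 4 d and 25.2% after 10 d. The lowest and the highest share were thus both found in knockout cells under auxin. The 95% exact binomial interval of the washout share, the widest, ran from 24.13% to 24.17%. It covers counting error only, as do all intervals here.

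Within the range, contacts were placed differently. Those at 5 to 10 Mb made up 6.57%, 6.35%, 6.73% and 6.59% of intra-arm contacts in the DNMT1-AID libraries (untreated, 4 d, 10 d and washout) and 5.79%, 5.76% and 6.24% in the knockout (untreated, 4 d and 10 d). The lines did not overlap in this outer part. At 1 to 2 Mb the shares were 9.22%, 9.40%, 8.94% and 8.83% in DNMT1-AID cells and 9.51%, 9.29% and 9.74% in the knockout, and the lines overlapped. At 2 to 5 Mb they were 8.83%, 8.47%, 8.88% and 8.73% against 8.41%, 8.27% and 9.17%, with overlap again. The median separation of the contacts within the range was 2.7, 2.6, 2.75 and 2.75 Mb in the DNMT1-AID libraries and 2.5, 2.5 and 2.55 Mb in the knockout ones.

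**Figure D2:**
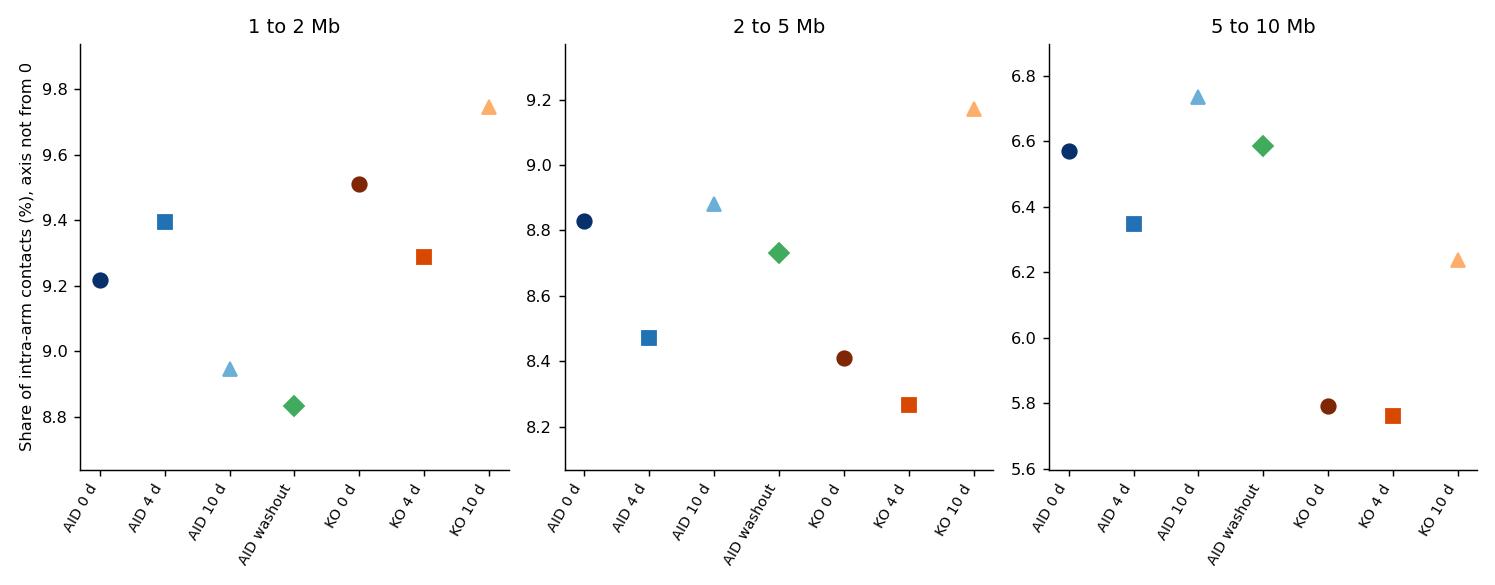
Share of intra-arm contacts (%) at 1 to 2, 2 to 5 and 5 to 10 Mb, 1 point per library, with DNMT1-AID libraries (AID) first and knockout libraries (KO) after them; the vertical axes span the same number of percentage points and do not start at 0. At 5 to 10 Mb the 3 knockout points (5.76% to 6.24%) lie below the 4 DNMT1-AID points (6.35% to 6.73%).

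The share varied more between arms than between libraries. In untreated DNMT1-AID cells the share at 1 to 10 Mb was 24.9% ± 1.88 (mean and SD over 39 arms), from 20.3% on 17q, 22.1% on 22q and 22.6% on 20q to 28.0% on 9p, 29.0% on 5p and 29.6% on 21q. In the knockout without auxin, 17q was lowest with 20.8% and 21q highest with 26.8%, and the SD over arms was 1.37. Arm 17q was lowest and 21q highest in each of the 7 libraries. Over the arms, the share in untreated DNMT1-AID cells correlated with protein-coding genes per Mb with r = -0.29 and rho = -0.47 (n = 39). It correlated with the share of the arm's clustered bins in the authors' 2 A clusters (A1 and A2) with r = -0.53 and rho = -0.48 (n = 38, since 13q has no clustered bins). Arms of 1 library share its depth and its balancing, and gene density and A share themselves correlated with r = 0.69, so these are descriptions only.

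The decay exponent, the slope of a straight line through the 10 log-spaced bins on log10 axes, summarises the steepness over the whole range, although the curve bends within it. It was -1.13 in untreated DNMT1-AID cells, -1.16 after 4 d, -1.10 after 10 d and -1.11 after washout. In the knockout it was -1.23 without auxin, -1.22 after 4 d and -1.20 after 10 d. In untreated DNMT1-AID cells it was steepest on 9q (-1.28), 17q (-1.23) and 7p (-1.23), and shallowest on 16p (-0.97), 5p (-1.01) and 21q (-1.02).

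The first comparison asked how this range differed after 4 d of auxin in DNMT1-AID cells. Contacts lay closer together: their share was higher at 1 to 2 Mb (log2 ratio 0.027, higher on 30 of 39 arms) and lower at 2 to 5 Mb (-0.060) and 5 to 10 Mb (-0.050), both on 39 of 39 arms. The share of the whole range, 24.2% against 24.6%, was lower on 37 of 39 arms (log2 ratio -0.024, SD over arms 0.037). It was lowest on 19p (-0.17), 22q (-0.12) and 19q (-0.12), and highest on 5q (0.0027), 7p (0.00027) and 4q (-0.00064). Arms 19p and 19q are the most gene-dense of the 39, with 25.1 and 24.5 protein-coding genes per Mb. The pooled exponent differed by -0.028, and the decay was steeper on 39 of 39 arms, from -0.11 on 19q to -0.0040 on 11p.

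Of the 390 arm-by-bin points at 1 to 10 Mb, 67 were lower by at least 0.1 on the log2 scale after 4 d. Only 1 was higher by at least 0.1, which is a rise of 7.18%. Over all separations from 0.1 to 100 Mb, 32.6% of the 1046 points were lower by that much and 6.21% were higher. The members' 17.2% was thus below the background for lower points. Their median log2 ratio was -0.048, against -0.040 over all points. Over arms, the log2 ratio of the share correlated with gene density with r = -0.82 and rho = -0.58, and with arm length with r = 0.65 and rho = 0.79 (n = 39). Contacts at 10 Mb and beyond made up 14.1% of intra-arm contacts at 4 d and 16.2% without auxin. Those under 1 Mb made up 61.7% and 59.2%. The part of either in these correlations was not tested. Without the arms of chromosome 19, left out after the values were seen, r with gene density was -0.66 and r with length 0.65 (n = 37).

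After 10 d of auxin in DNMT1-AID cells the displacement ran the other way. The share at 1 to 2 Mb was lower (log2 ratio -0.043, lower on 38 of 39 arms), that at 2 to 5 Mb was 0.0083 (higher on 28 arms) and that at 5 to 10 Mb was higher (0.036, on 31 arms). Over the whole range the share was nearly the same, 24.6% in both libraries (log2 ratio -0.0033, higher on 16 arms and lower on 23), and the ratio was 0.020 at 2 to 10 Mb. Arms 19q (-0.090), 19p (-0.080) and 16p (-0.051) were lowest, and 18p (0.068), 13q (0.035) and 6p (0.024) highest. The exponent differed by 0.029, with a shallower decay on 32 of 39 arms, from -0.071 on 19q to 0.065 on 11p. Of 390 points, 8 (2.05%) were higher and 21 (5.38%) lower by at least 0.1, against 9.08% and 3.92% of all points. Few members thus passed this size in either direction, though the share of lower points was above the background.

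Set directly against 4 d, the 10 d library had a lower share at 1 to 2 Mb (-0.071, on 36 arms) and a higher one at 2 to 5 Mb (0.068) and at 5 to 10 Mb (0.086), both on 39 of 39 arms. The decay was shallower on all 39 arms (exponent difference 0.057), from 0.028 on 5p to 0.11 on 18p. Its share of the whole range had a log2 ratio of 0.020 and was higher on 35 arms, highest on 18p (0.11), 22q (0.086) and 19p (0.086) and lowest on 5q (-0.026), 2q (-0.0098) and 12q (-0.0059). The pooled ratio was 0.0058 with all contacts within chromosomes as denominator, 0.036 as a median over arms and -0.0034 at 1 to 5 Mb, so its direction depends on the range. At least 0.1 higher were 91 of 390 points (23.3%, against 35.4% of all points) and at least 0.1 lower 22 (5.64%, against 14.1%). Both times were compared with the same untreated library, so their values are not independent.

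The washout library had an exponent of -1.11, nearer to the 10 d library (-1.10) than to the 4 d library (-1.16). Against untreated cells its share was lower at 1 to 2 Mb (-0.062, on 39 of 39 arms) and at 2 to 5 Mb (-0.016, on 33 arms), and at 5 to 10 Mb it was 0.0036, higher on 21 arms and lower on 18. The whole range had a log2 ratio of -0.028 and was lower on 37 arms. It was lowest on 22q (-0.064), 17q (-0.060) and 19q (-0.053) and highest on 18p (0.038), 21q (0.00034) and 5p (-0.0074). The exponent difference was 0.025, shallower on 37 arms, from -0.028 on 19q to 0.074 on 18p. Of 390 points 3 (0.77%) were higher and 14 (3.59%) lower by at least 0.1, against 7.07% and 2.96% of all points.

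Against the 4 d library, the share after washout was lower at 1 to 2 Mb (-0.089, on 37 arms) and higher at 2 to 5 Mb (0.043) and 5 to 10 Mb (0.053), both on 39 of 39 arms. The whole range had a log2 ratio of -0.0040 when pooled, yet was higher on 24 of 39 arms. It was higher on shorter arms, with a correlation with arm length of r = -0.76 and rho = -0.86 (n = 39). With gene density it correlated with r = 0.66 and rho = 0.42, and with the A1 and A2 share with r = 0.56 and rho = 0.47 (n = 38). Contacts at 10 Mb and beyond made up 16.6% of intra-arm contacts after washout and 14.1% at 4 d, and those under 1 Mb 59.2% and 61.7%. The part of either in these correlations was not tested. The ratio of the whole range was highest on 19p (0.14), 18p (0.076) and 19q (0.065), and lowest on 5q (-0.032), 4q (-0.028) and 2q (-0.027). The decay was shallower on all 39 arms (exponent difference 0.053), from 0.036 on 5p to 0.14 on 18p. Of 390 points 49 (12.6%) were higher and 38 (9.74%) lower by at least 0.1, against 30.3% and 20.3% of all points.

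In knockout cells, 4 d of auxin went with small differences. The share at 1 to 2 Mb was lower on 39 of 39 arms (log2 ratio -0.034), that at 2 to 5 Mb on 30 arms (-0.025) and that at 5 to 10 Mb on 23 arms (-0.0081). Over the whole range the share was 23.3% against 23.7% (-0.024, lower on 33 arms). As in DNMT1-AID cells, 19p (-0.15), 19q (-0.10) and 22q (-0.095) lay lowest. Arms 21q (0.023), 4p (0.018) and 5p (0.015) lay highest. The exponent difference was 0.017 (0.011 with raw contacts), shallower on 29 arms, from -0.042 on 9q to 0.058 on 18q. Of 390 points 30 (7.69%) were lower and 1 (0.26%) higher by at least 0.1, against 5.35% and 11.2% of all points.

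After 10 d of auxin in the knockout the share of the whole range was higher on every one of the 39 arms, at 25.2% against 23.7% (log2 ratio 0.085, SD over arms 0.031). Arms 18p (0.20), 20q (0.16) and 17p (0.15) were highest, and 5q (0.049), 4q (0.050) and 6q (0.060) lowest. On 18p the share was 26.2% against 22.8%, and on 5q 24.8% against 24.0%. Contacts under 1 Mb and those at 10 Mb and beyond also count among those the share is divided by. Contacts under 1 Mb made up 58.3% against 62.5%, with 72.7% against 76.3% on 18p and 54.4% against 59.1% on 5q. Those at 10 Mb and beyond made up 16.5% against 13.8%, with 1.09% against 0.95% on 18p and 20.7% against 16.8% on 5q. Their part in the order of the arms was not tested. The log2 ratio of the share was 0.035 at 1 to 2 Mb (higher on 36 arms), 0.13 at 2 to 5 Mb and 0.11 at 5 to 10 Mb, both on 39 arms. By bin, the share ratio was 0.0090 at 1.12 Mb, reached 0.15 at 4.49 Mb and was 0.074 at 8.93 Mb, so the middle of the range stood out most. Of 390 points 233 were higher by at least 0.1, which is 59.7%, against 47.3% of all points. None was lower by that much, against 12.1% of all points. The exponent difference was 0.028, shallower on 33 arms, from -0.058 on 16p to 0.11 on 19p.

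Against 4 d in the knockout, the 10 d share was higher on all 39 arms (0.11), most on 19p (0.25), 18p (0.22) and 17p (0.21) and least on 5q (0.069), 4q (0.077) and 8q (0.078). The log2 ratio was 0.069, 0.15 and 0.11 at 1 to 2, 2 to 5 and 5 to 10 Mb, each with all 39 arms higher. The ratio of the whole range correlated over arms with the A1 and A2 share with r = 0.87 and rho = 0.84 (n = 38). With arm length it correlated with r = -0.65 and rho = -0.67 (n = 39). Contacts at 10 Mb and beyond made up 16.5% of intra-arm contacts at 10 d and 14.5% at 4 d. Those under 1 Mb made up 58.3% and 62.2%. The part of either in these correlations was not tested. Against the untreated knockout, the A1 and A2 share gave r = 0.46 for the 10 d library and r = -0.74 for the 4 d library, so the value between 10 d and 4 d draws on both. At least 0.1 higher were 270 of 390 points (69.2%), against 48.2% of all points. The exponent difference was 0.011 (0.017 with raw contacts), shallower on 29 arms, from -0.074 on 16p to 0.071 on 19p. The share of contacts between chromosomes was 28.8% in the 10 d knockout library and 24.0% and 24.8% in the other knockout libraries, and its part in these differences was not tested.

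**Figure D3:**
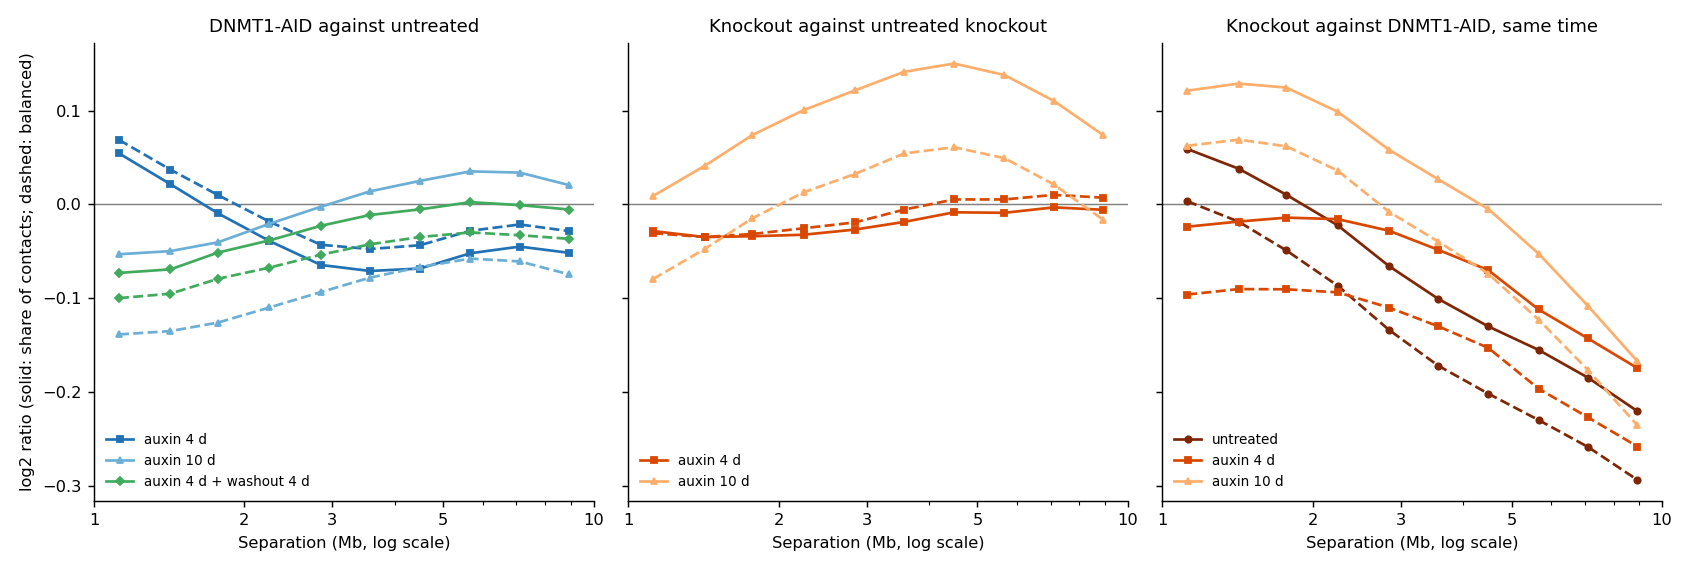
log2 ratio between libraries against separation (Mb, log scale) in the 10 log-spaced bins at 1 to 10 Mb; solid lines compare shares of intra-arm contacts per bin pair and dashed lines balanced contact per bin pair. Left, DNMT1-AID libraries against the untreated one; middle, knockout libraries against the untreated knockout; right, knockout against DNMT1-AID at the same time, where all 6 lines end between -0.29 and -0.17 at 8.93 Mb.

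The knockout was then set against DNMT1-AID cells at the same time of auxin. Knockout cells had a smaller share of intra-arm contacts at 5 to 10 Mb at each time. The log2 ratio of that share was -0.18 without auxin, -0.14 at 4 d and -0.11 at 10 d, lower on 38, 38 and 34 of 39 arms. At 1 to 2 Mb the ratios were 0.045 (higher on 31 arms), -0.017 (lower on 24) and 0.12 (higher on 39). At 2 to 5 Mb they were -0.070 (lower on 36 arms), -0.035 (lower on 32) and 0.047 (higher on 28). Over the whole range the ratio was -0.054 without auxin and -0.055 at 4 d, lower on 37 and 36 arms, but 0.034 at 10 d, where 31 arms were higher.

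The arms at the ends of these 3 comparisons overlapped, and each is given with its own values. Without auxin, 16p (-0.20), 20p (-0.16) and 21q (-0.14) were lowest, and 17q (0.033), 22q (0.0020) and 2p (-0.0066) highest. At 4 d, 7p (-0.15), 20p (-0.13) and 19q (-0.11) were lowest, and 17q (0.049), 22q (0.026) and 11p (0.00011) highest. At 10 d, 20p (-0.069), 16p (-0.049) and 7p (-0.030) were lowest, and 17q (0.16), 22q (0.14) and 19p (0.13) highest. Arm 17q held 20.3%, 19.1% and 20.2% in the DNMT1-AID libraries (untreated, 4 d and 10 d) and 20.8%, 19.8% and 22.6% in the knockout. On 16p the shares were 24.7%, 22.9% and 23.9% against 21.6%, 21.3% and 23.1%. The 3 comparisons use 6 different libraries.

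Of the 390 points, 166 (42.6%) were at least 0.1 lower in the knockout without auxin, against 37.9% of all points. At 4 d 122 were lower (31.3%, against 21.6%) and at 10 d 73 (18.7%, against 21.0%). At least 0.1 higher were 6 points (1.54%, against 15.2% of all points), 3 (0.77%, against 12.8%) and 150 (38.5%, against 29.3%). Over all 7 libraries, 79 points had 3 knockout values below all 4 DNMT1-AID values, which is 20.3%, against 15.9% of all points. These lay mainly in the outer part: 66 of 117 points at 5 to 10 Mb, 13 of 156 at 2 to 5 Mb and 0 of 117 at 1 to 2 Mb. In 31 points (7.95%, against 6.41% of all points) the knockout was higher throughout, 29 of them at 1 to 2 Mb and 0 at 5 to 10 Mb.

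The decay between 1 and 10 Mb was steeper in the knockout at each time, with exponent differences of -0.10 without auxin (steeper on 38 of 39 arms), -0.057 at 4 d (37 arms) and -0.10 at 10 d (37 arms). Arm 10p had the lowest difference at all 3 times (-0.21, -0.14 and -0.24). The highest was on 17q without auxin (0.0018), on 19q at 4 d (0.063) and on 19p at 10 d (0.050). The mean exponent was -1.22 ± 0.014 (SD, n = 3 libraries) in the knockout and -1.12 ± 0.026 (SD, n = 4) in DNMT1-AID cells, and the libraries of a line differ in treatment. Leaving out each library in turn, the difference of the means of -0.094 lay between -0.11 and -0.087, and it was -0.087 without the knockout library whose labels differ.

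The exponents of all 3 knockout libraries lay below those of all 4 DNMT1-AID libraries on 34 of 39 arms, a comparison chosen after its values were seen. Over the ranges of 0.1 to 1, 1 to 10 and 10 to 50 Mb together, 30.2% of 116 arm exponents were placed so. At 0.1 to 1 Mb it was 0 of 39 arms and at 10 to 50 Mb 1 of 38. The 5 arms with overlap at 1 to 10 Mb were 19p, 19q, 9q, 17q and 17p. Arms 19p, 19q, 17q and 17p have the 4 highest gene densities of the 39 arms (13.9 to 25.1 per Mb), and 9q has 5.98 per Mb, against a median of 6.37. Other gene-dense arms did not overlap: the lines were 0.11 apart on 16p (12.9 per Mb) and 0.0044 apart on 22q (11.9 per Mb).

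Values on single arms show both cases. On 10p the exponents were -1.06, -1.13, -1.04 and -1.03 in the DNMT1-AID libraries (untreated, 4 d, 10 d and washout) and -1.27, -1.28 and -1.28 in the knockout (untreated, 4 d and 10 d), so the lines were well apart. Arm 16p gave -0.97, -1.02, -0.99 and -0.97 against -1.15, -1.14 and -1.21, also without overlap. On 19q they were -1.05, -1.17, -1.13 and -1.08 against -1.10, -1.11 and -1.08, and the knockout values lay inside the range of the others. The narrowest gap without overlap was on 5q, where the steepest DNMT1-AID exponent was -1.23 and the shallowest knockout exponent was 0.00017 below it.

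**Figure D4:**
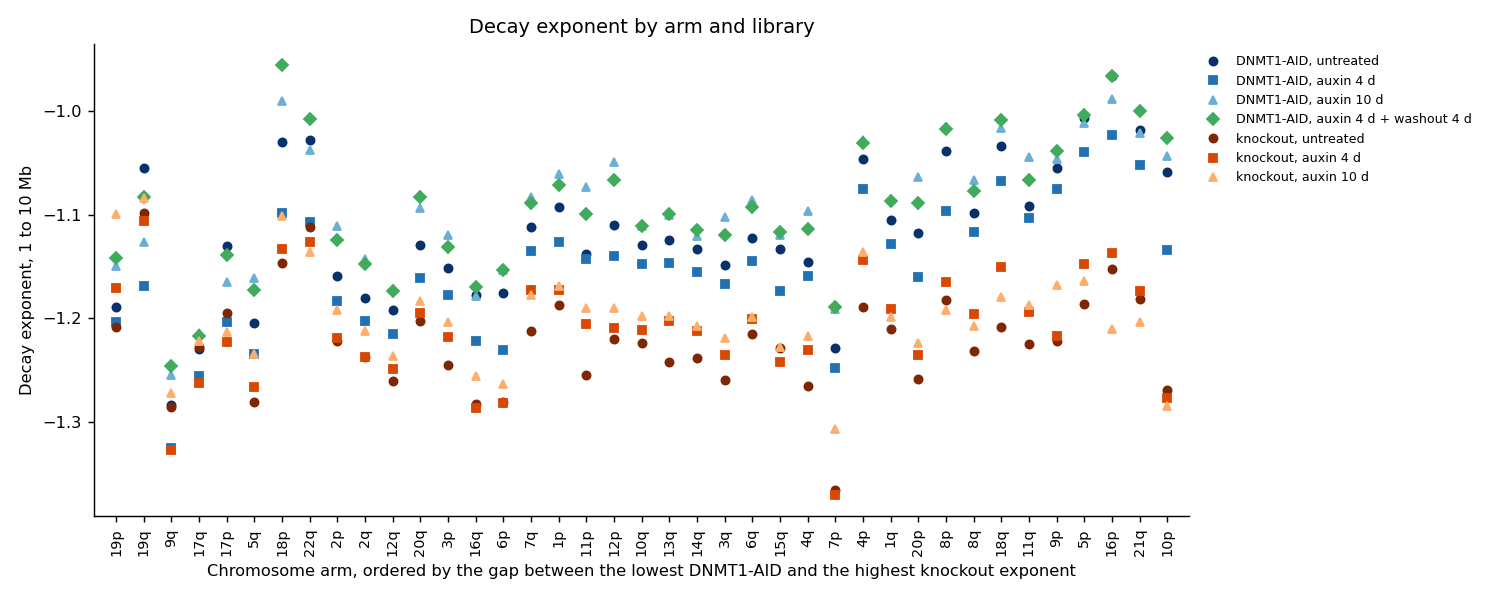
Decay exponent at 1 to 10 Mb of each of the 39 arms in each of the 7 libraries, with arms ordered by the gap between the lowest DNMT1-AID exponent and the highest knockout exponent. On the 5 arms at the left (19p, 19q, 9q, 17q and 17p) the lines overlap, and on the other 34 all knockout points lie below all DNMT1-AID points.

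The steeper knockout decay did not end at 10 Mb. At 10.0 Mb the local slope was -0.73, -0.70 and -0.74 in the knockout libraries (untreated, 4 d and 10 d) and -0.55, -0.66, -0.60 and -0.58 in the DNMT1-AID libraries (untreated, 4 d, 10 d and washout), again without overlap. The lines overlapped at the next 3 steps, which begin at 12.6 Mb. At the 3 steps that begin at 25.2 Mb the order was the opposite, with all 3 knockout slopes shallower than all 4 DNMT1-AID slopes. Over 10 to 50 Mb as a whole the pooled exponent was -0.89, -0.84 and -0.71 in the knockout libraries (untreated, 4 d and 10 d) and -0.96, -1.07, -0.92 and -0.92 in the DNMT1-AID libraries (untreated, 4 d, 10 d and washout) (less steep in the knockout). By arm, 12 of 38 (31.6%) had all knockout exponents above all DNMT1-AID exponents at 10 to 50 Mb, against 11.2% of all 116 arm exponents. Between 0.1 and 1 Mb the lines overlapped, with -1.14 to -1.08 in the knockout and -1.17 to -1.12 in DNMT1-AID cells. By local slope, the steeper knockout decay without overlap thus ran from 2.53 to 10.0 Mb.

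The separations at which 2 curves cross were found on 2 scales, since they depend on what each curve is divided by. They are those of the pooled curves unless arms are named, and single arms could cross where the pooled curves did not. The labels do not say whether the balancing used contacts between chromosomes. The share of raw contacts that lay between chromosomes was 21.0%, 20.2%, 25.8% and 22.8% in the DNMT1-AID libraries and 24.8%, 24.0% and 28.8% in the knockout. In the same order, balanced contact at 1.12 Mb was 25.9, 27.2, 23.5 and 24.2 x 1e-4 in the DNMT1-AID libraries and 26.0, 25.4 and 24.6 x 1e-4 in the knockout. It was lower at a higher share between chromosomes within the DNMT1-AID libraries, but not over all 7. The part of that share in the balanced curves was not tested. On the share scale each curve is divided by its own intra-arm contacts. At 1.12 Mb, for example, the 10 d library of DNMT1-AID cells stood at -0.14 against untreated cells on the balanced scale and at -0.053 on the share scale.

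After 4 d of auxin in DNMT1-AID cells the curve lay above the untreated one at short separations and crossed below it at 1.93 Mb on the balanced scale and 1.66 Mb on the share scale. By arm, 28 of 39 crossed once on the balanced scale and all 28 downwards, with a median of 1.90 Mb, and on the share scale 34 arms crossed once downwards, with a median of 1.69 Mb. The 10 d curve lay below the untreated one in all 10 bins on the balanced scale, without a crossing between 1 and 10 Mb, and crossed upwards at 2.94 Mb on the share scale. The washout curve did not cross the untreated one on the balanced scale, and on the share scale it crossed at 5.26 and 6.77 Mb, between which it was at most 0.0024 higher. Against 4 d, the 10 d curve crossed upwards at 2.05 Mb on the share scale alone, with 38 of 39 arms crossing once in that direction (median 1.89 Mb). The washout curve crossed the 4 d curve upwards at 2.24 Mb on the share scale (35 arms once, median 2.05 Mb) and at 3.32, 5.44 and 9.60 Mb on the balanced scale, where the log2 ratios beyond 3.32 Mb stayed between -0.011 and 0.0087.

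In the knockout, the 4 d curve crossed the untreated one at 4.01 Mb on the balanced scale and nowhere in the range on the share scale when pooled, although 27 of 39 arms crossed at least once there. With balanced contact divided by its intra-arm total the pooled crossing was at 6.08 Mb, and the log2 ratios on that scale lay between -0.042 and 0.0034. The 10 d curve crossed the untreated one upwards at 2.01 Mb and downwards at 8.09 Mb on the balanced scale, and at 1.04 Mb on the share scale, above which it stayed higher. It crossed the 4 d curve at 1.56 and 7.65 Mb on the balanced scale and not in the range on the share scale. Both scales thus showed the 10 d excess as largest near the middle of the range, at 3.57 to 4.49 Mb.

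Between the lines, the untreated knockout curve crossed below the DNMT1-AID curve at 1.17 Mb on the balanced scale and at 1.91 Mb on the share scale, where 32 of 39 arms crossed once, all downwards (median 2.03 Mb). At 10 d it crossed downwards at 2.73 Mb and 4.33 Mb, with 32 and 31 arms crossing once and medians of 3.08 and 4.03 Mb. At 4 d the pooled curves did not cross in the range on either scale, and the knockout was lower in all 10 bins on both. By arm, 28 of 39 crossed at least once on the share scale and 4 on the balanced scale. The ratio at 8.93 Mb was -0.22, -0.17 and -0.17 on the share scale and -0.29, -0.26 and -0.24 on the balanced scale (untreated, 4 d and 10 d).

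**Figure D5:**
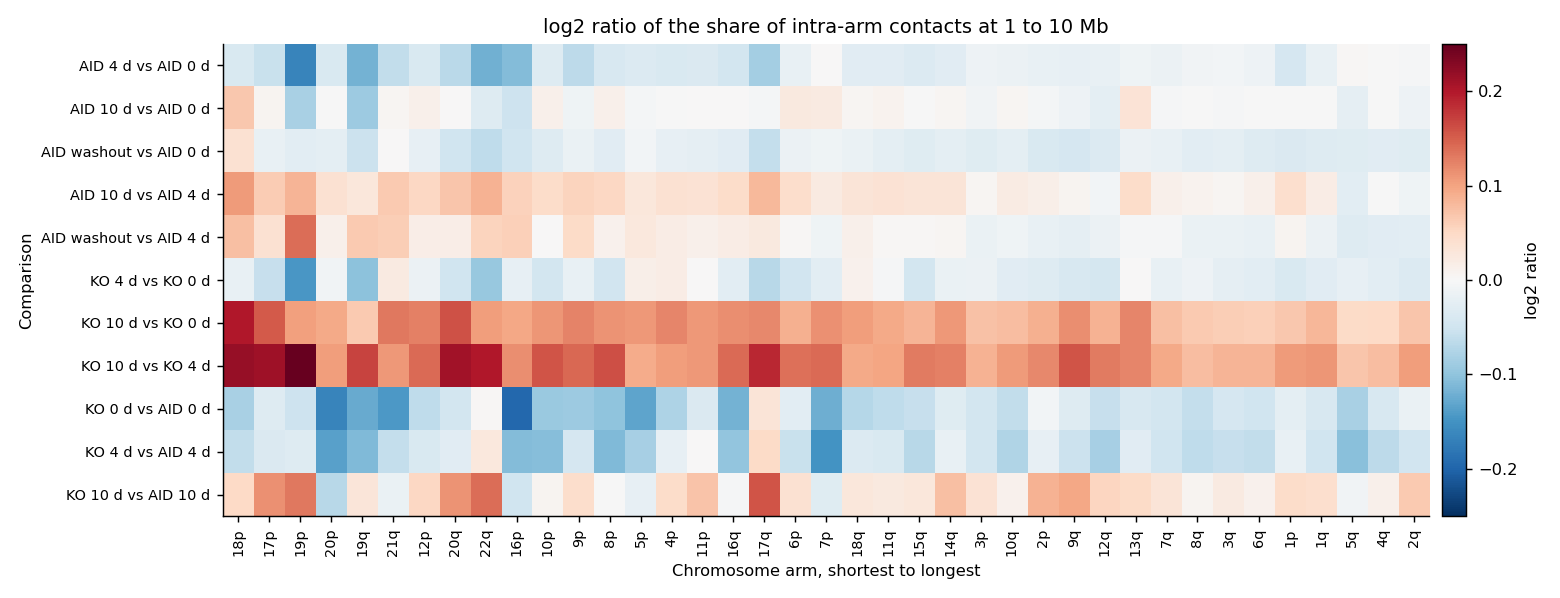
log2 ratio of the share of intra-arm contacts at 1 to 10 Mb for 39 arms (columns, shortest to longest) in 11 comparisons between libraries (lines), with DNMT1-AID as AID and the knockout as KO; red is higher in the first library named and blue lower. The 2 lines of knockout cells after 10 d against 0 d and 4 d are red on every arm, and the deepest red, 0.25 on 19p, lies among the short arms at the left.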

How the data were processed

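The libraries were made with an Arima Hi-C kit, per the labels' protocols. The submitters' processing notes name BWA and the hg38 build. How pairs were filtered, which program balanced the matrices and which version of BWA was used is not given in the sources used here. Per arm and 50 kb step of separation, the deposited tables hold the count of raw contacts, which are whole numbers, and the sum of the balanced signal over valid bin pairs, per the file headers. The smallest separation with values is 100 kb. The counts of an arm also include contacts of bins masked in balancing.

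Arms entered with at least 1000 valid bin pairs at 1 to 10 Mb. Shares are raw contacts over all intra-arm contacts, with 95% exact binomial intervals. Curves are balanced sums over valid pairs in 10 log-spaced bins per decade, pooled over arms, and exponents and local slopes are least-squares and bin-to-bin slopes on log10 axes. Crossings were interpolated linearly on log10 separation. Points of an arm and bin needed at least 100 valid pairs, and a log2 ratio of at least 0.1 between shares per valid pair counted as a call. Named arms are the 3 highest and 3 lowest by the log2 ratio of the share, and the highest and lowest by exponent, in each of 11 comparisons; single arms shown for overlap were picked after their values were seen. Genes per Mb come from the RefSeq table for GRCh38.p14 (19071 of 19122 autosomal protein-coding genes placed in an arm).

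The members, arms and ranges were chosen with earlier results of these data known. Each group holds 1 library, so no test between groups was run. Scripts used Python 3.11.15, NumPy 2.4.6, pandas 2.3.3, SciPy 1.17.1 and Matplotlib 3.10.9, and were tested on simulated data. Alternatives were balanced sums, medians over arms, another denominator, other ranges and bins, and arms with chromosome X or without chromosome 8.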

Additional observations from a re-analysis of the deposited data

Results flagged for a closer look

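Auxin went with opposite directions in DNMT1-AID and knockout cells in 4 measures, which is why they are listed here. Each effect is the difference between 1 treated and 1 untreated library, so the difference between the lines was not tested. At 4 d the share of intra-arm contacts at 1 to 2 Mb had a log2 ratio to untreated of 0.027 in DNMT1-AID cells and -0.034 in the knockout. The decay exponent at 1 to 10 Mb differed from untreated by -0.028 in DNMT1-AID cells and by 0.017 in the knockout at 4 d. At 10 d the share at 1 to 10 Mb had a log2 ratio of -0.0033 in DNMT1-AID cells and 0.085 in the knockout. The DNMT1-AID value was lower on 23 arms and higher on 16 (SD over arms 0.027), and it turned to 0.020 at 2 to 10 Mb. At 10 d the share at 1 to 2 Mb had a log2 ratio of -0.043 in DNMT1-AID cells and 0.035 in the knockout. The other measures compared ran the same way in both lines. The 4 d ratios in DNMT1-AID and knockout cells were -0.024 and -0.024 at 1 to 10 Mb. At 2 to 5 Mb they were -0.060 and -0.025, and at 5 to 10 Mb -0.050 and -0.0081. The 10 d ratios were 0.0083 and 0.13 at 2 to 5 Mb and 0.036 and 0.11 at 5 to 10 Mb. The 10 d exponent differences were 0.029 and 0.028.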

How the results depend on the processing

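No paired analysis was possible because the labels carry no replicate numbers to pair by and each group holds 1 library. The lines share only auxin times, and the difference at each time is given singly. The log2 ratio of the share at 1 to 10 Mb kept its direction in 71 of 77 recomputed values, and 54 of these moved by more than the counting interval, which is narrow at this depth. The cause of the 6 changes of direction was not tested.

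With balanced sums, 4 d, 10 d and washout against untreated DNMT1-AID cells gave -0.026, -0.0022 and -0.024. Against 4 d, 10 d gave 0.024 and washout turned to 0.0025. Knockout at 10 d gave 0.087 against untreated and 0.11 against 4 d, and knockout against DNMT1-AID gave -0.056, -0.054 and 0.033 (untreated, 4 d and 10 d). As medians over arms, the values in the same order were -0.033, -0.00062 and -0.026, then 0.036 and, turned, 0.0041. The knockout gave -0.026 at 4 d and 0.10 at 10 d against untreated and 0.12 against 4 d, and the lines differed by -0.057, -0.053 and 0.035.

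With all contacts within chromosomes as denominator, the DNMT1-AID values were -0.016, -0.0099 and -0.033, then 0.0058 and -0.018. The knockout values at 10 d were 0.072 and 0.097, and the lines differed by -0.052, -0.062 and 0.030. At 1 to 5 Mb the DNMT1-AID values were -0.014, -0.018 and -0.039, then -0.0034 (turned) and -0.025. The knockout gave -0.030, 0.078 and 0.11, and the lines differed by -0.010, -0.026 and 0.086. At 2 to 10 Mb the DNMT1-AID values were -0.055, 0.020 (turned) and -0.0078, then 0.075 and 0.048 (turned). The knockout gave -0.018, 0.12 and 0.14, and the lines differed by -0.12, -0.079 and, turned, -0.019.

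With chromosome X, 10 d against untreated gave -0.0026 in DNMT1-AID cells, the knockout gave -0.022 at 4 d and 0.088 at 10 d, and the lines differed by -0.054 at 4 d and 0.036 at 10 d. Without chromosome 8, the knockout at 10 d gave 0.11 against 4 d and 0.036 against DNMT1-AID cells. The other values with or without these chromosomes moved by less than the counting interval.

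None of the 11 exponent differences turned under 5 alternatives. The largest move was 0.0070, with raw contacts, for the knockout against DNMT1-AID cells without auxin (-0.103 to -0.096). Raw contacts also changed the small knockout differences of 0.017 (4 d against untreated) and 0.011 (10 d against 4 d) to 0.011 and 0.017. The count of arms whose knockout exponents all lay below the others, 34 of 39, was 31 with raw contacts, an alternative chosen after the data were seen. Leaving out a library (34 to 35) can only raise this count, and leaving out chromosome 8 removes 2 of the 34 arms by construction, so neither shows stability. Crossings moved most with the scale, as given beside them, and by bin width at most from 3.32 to 3.99 Mb for washout against 4 d.

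Depth does not limit the pooled shares. The spread between cultures is unknown, and differences of a few hundredths on the log2 scale cannot be set against it.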
